A study of Mus musculus with 24 samples.

Results

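The levels of 9 genes that make, carry, sense or remove retinoic acid were followed in the brains of mouse embryos, out of 54446 genes counted. They were chosen by name for their role in the pathway: *Aldh1a1*, *Aldh1a2* and *Aldh1a3*, *Crabp1* and *Crabp2*, *Cyp26a1* and *Cyp26b1*, *Rarb* and *Stra6*. RNA came from 12 embryos at E14.5, 6 of them homozygous for a *Tfap2b* knockout (*Tfap2b*-/-, called mutants) and 6 wild type (called controls), with 3 females and 3 males by label for each genotype. In the mutant allele a PGK-neo cassette sits in exon 4 of *Tfap2b*, in every cell of the embryo, and all embryos came from matings of heterozygous parents, of which the strain background is not given in the sources used here. Each brain gave 2 libraries, one from the secondary prosencephalon (SP, the forebrain without the diencephalon) and one from the diencephalon, midbrain and hindbrain together (DMH). *Tfap2b* encodes a transcription factor of the AP-2 family.

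Retinoic acid is a small lipid that cells make from vitamin A. STRA6 takes up retinol from its carrier in blood, retinol dehydrogenases turn it into retinaldehyde, and the ALDH1A enzymes oxidise retinaldehyde to retinoic acid. In the cytoplasm it is held by CRABP1 and CRABP2, in the nucleus it binds the receptors RARA, RARB and RARG paired with RXR proteins, and CYP26 enzymes break it down. The receptors switch on *Rarb* and *Cyp26a1* themselves, and in the early hindbrain and spinal cord also *Hox* genes, which give the tissue its position from head to tail. In the fetal brain *Aldh1a2* is best known from the meninges, *Aldh1a3* from the lateral ganglionic eminence of the forebrain and *Aldh1a1* from dopaminergic neurons of the midbrain.

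The best known binding site for retinoic acid receptors is a pair of hexamers in the same direction, 5 bases apart, called DR5. Promoter windows from RefSeq on GRCm38.p6, 250 bases before to 50 bases after a transcription start, were found for 7 of the 9 genes, in 11 windows, and there was none for *Aldh1a3* and *Crabp2*. Both strands were searched for DR5 with the hexamers AGGTCA or AGTTCA or GGTTCA or GGGTCA on either side. A match lay in the windows of *Rarb*, from 53 to 37 bases before the start, and *Cyp26a1*, from 32 to 16 bases before it, and in 32 of all 32851 windows (0.0974%). The AP-2 motif GCCNNNGGC lay in the windows of *Aldh1a2*, *Cyp26a1* and *Cyp26b1* and in 16.6% of all windows. The 250 bases before the start follow for *Rarb* and *Cyp26a1*, which hold the DR5 match, and for *Crabp1*, which holds neither motif and whose level differed most between the DMH pieces described further on. Capitals mark the hexamers of DR5 and the outer bases of the AP-2 motif, which overlap nowhere in these 3 sequences. The *Rarb* sequence is from chr14:16575477-16575726 on the minus strand, within the gene, that of *Cyp26a1* from chr19:37697558-37697807 on the plus strand, where the hexamers are read on the reverse strand, and that of *Crabp1* from chr9:54764498-54764747 on the plus strand.
Rarb: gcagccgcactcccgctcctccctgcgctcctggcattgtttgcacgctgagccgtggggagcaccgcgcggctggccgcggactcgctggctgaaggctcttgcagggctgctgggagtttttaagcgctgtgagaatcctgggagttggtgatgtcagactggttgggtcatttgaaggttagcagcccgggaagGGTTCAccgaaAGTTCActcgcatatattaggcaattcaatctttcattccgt
Cyp26a1: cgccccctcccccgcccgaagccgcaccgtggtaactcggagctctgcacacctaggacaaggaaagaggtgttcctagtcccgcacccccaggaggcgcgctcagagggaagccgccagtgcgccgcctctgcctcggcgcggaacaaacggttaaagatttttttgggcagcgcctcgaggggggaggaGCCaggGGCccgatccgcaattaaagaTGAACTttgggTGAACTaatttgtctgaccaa
Crabp1: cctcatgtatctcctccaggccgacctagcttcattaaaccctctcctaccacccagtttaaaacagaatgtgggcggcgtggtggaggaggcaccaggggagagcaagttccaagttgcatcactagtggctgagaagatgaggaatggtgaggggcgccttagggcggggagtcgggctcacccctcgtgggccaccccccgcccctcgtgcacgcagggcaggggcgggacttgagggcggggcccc

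Between 24717386 and 66844175 fragments per library were counted on genes. Levels are given as CPM, counts per 1000000 with TMM scaling over the 24 libraries, and a count of 3, taken as the floor, stood for 0.0455 to 0.123 CPM. *Tfap2b* was lower in every DMH library of a mutant (50.4 to 56.6 CPM) than of a control (281 to 435 CPM), while in SP the genotypes overlapped at 2.75 to 4.72 CPM. The forebrain markers and the markers of midbrain and rostral hindbrain separated the SP and DMH libraries as labelled, with 8 genes in each list. The embryo labelled female control 2 had transcripts of the Y chromosome and next to no *Xist*, and its label is kept. The DMH of female mutant 3 stood apart, with 3402 CPM for 10 markers of meninges and mesenchyme (751 to 1237 elsewhere), 1918 CPM for 5 cartilage genes (69.4 to 92.3) and 615 CPM for 7 muscle genes (5.82 to 8.39). As in the study, this embryo was left out of the comparisons unless stated. The SP of male mutant 3 had 146 CPM for the meningeal list, against 479 to 713 in the other 11 SP libraries, and 41.3 CPM for 8 choroid plexus markers, against 203 to 533. It was also the lowest for 6 endothelial markers (161 CPM, against 205 to 270) and 7 markers of surface epithelium (2.47 CPM, against 5.68 to 8.57). In 4 DMH libraries a sum of 11 caudal *Hox* genes, of groups 4 to 8, was at 0.0378 to 0.246 CPM, while the other 8 had 237 to 422 CPM. These 4 were female control 1, female mutants 1 and 2 and male mutant 2.

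In the SP of controls the carriers were the most abundant of the 9 genes per length. In CPM per kilobase of exon, *Crabp1* had a level of 13.2 ± 2.69 (SD, n = 6) and *Crabp2* of 7.55 ± 2.37. *Aldh1a2* (3.49 ± 0.295), *Rarb* (2.85 ± 0.317), *Cyp26b1* (2.42 ± 0.471) and *Stra6* (2.39 ± 0.282) followed, and of these neighbours only *Aldh1a2* and *Rarb* differed by more than the SD of both. *Aldh1a3* was at 1.38 ± 0.165 CPM per kilobase, and *Aldh1a1* at 0.0518 ± 0.0157. In the DMH of controls the order changed: after *Crabp1* (31.7 ± 10.3 CPM per kilobase) came *Cyp26b1* (23.2 ± 4.92), *Crabp2* (16.2 ± 3.81) and *Aldh1a2* (9.11 ± 3.23), with *Stra6* (3.02 ± 0.234) and *Rarb* (2.38 ± 0.655) below them. *Crabp1* and *Cyp26b1* differed by less than the SD of *Crabp1*. *Aldh1a1* was at 0.815 ± 0.433 and *Aldh1a3* at 0.296 ± 0.230 CPM per kilobase, so that the synthesis gene with the highest level per length was *Aldh1a2* in both regions. *Cyp26a1* was last in both regions.

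**Figure D1:**
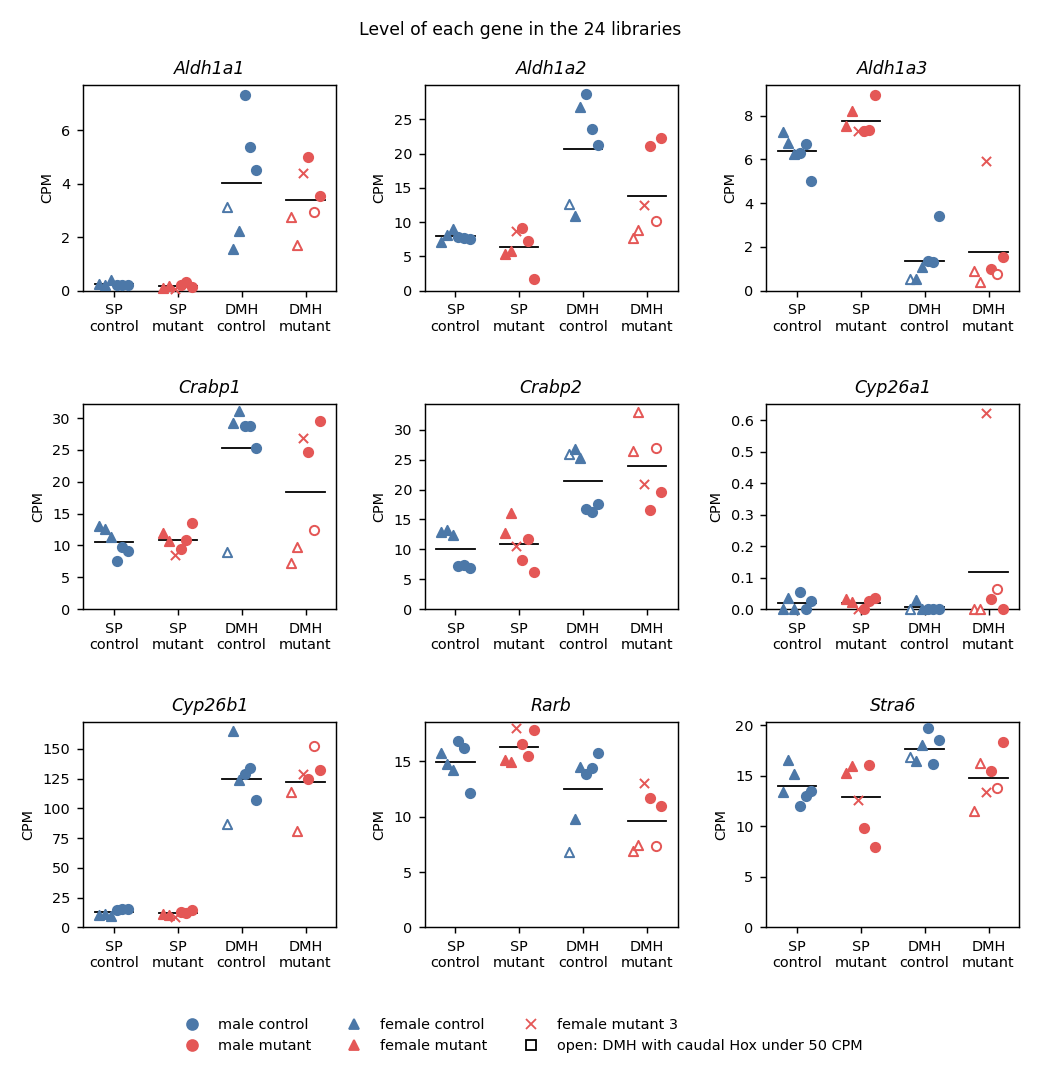
Levels of the 9 genes in the 24 libraries, in CPM on the vertical axis, by region and genotype. Points are libraries (circles male, triangles female, a cross for female mutant 3, open symbols for DMH libraries with a caudal Hox sum under 50 CPM) and lines are means of 6 libraries; Cyp26b1 lies between 81.4 and 165 CPM in DMH and between 8.80 and 15.8 CPM in SP.

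The regions were compared within each genotype, with sex as a covariate and without pairing the 2 libraries of an embryo. A gene was called where its false discovery rate was under 0.2 and its log2 fold change passed 0.5 in either direction. In controls 8 of the 9 genes passed the filter on low counts and 6 were called, 5 higher and 1 lower in DMH. Of all 17196 genes tested, 35.9% were called, 21.2% higher and 14.7% lower in DMH. In mutants 6 of 8 were called as well, 4 higher and 2 lower, with 36.2% of all genes called, 20.3% higher and 15.9% lower. The median log2 fold change, DMH minus SP, was 1.19 over the 8 genes in controls and 0.76 in mutants, and over all genes it was −0.0029 and −0.0109. *Aldh1a1* enters these counts and medians although it passed the filter only through DMH, where it was high, and apart from it 5 of 7 genes were called in either genotype.

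Among the synthesis genes, *Aldh1a1* and *Aldh1a2* were higher in DMH and *Aldh1a3* was higher in SP. *Aldh1a1* (chr19:20492715-20643465, plus strand) had 0.205 to 0.409 CPM in the SP of controls (median 0.224), which is 6 to 16 counts, and 1.57 to 7.32 CPM in their DMH (median 3.83). In SP it did not pass the filter on low counts, and with 3 to 16 counts there the fold depends on few reads. It was higher in DMH than in SP in 12 of 12 embryos, and the fitted log2 fold change, given as a description, was 3.84 (SE 0.32) in controls and 4.01 (SE 0.28) in mutants. A list of 8 markers of midbrain dopaminergic neurons, which did not include it, summed to 50.1 to 72.4 CPM in SP and 137 to 179 CPM in DMH, and its part in this difference was not tested.

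*Aldh1a3* (chr7:66390890-66427517, minus strand) went the other way. In controls it had 5.01 to 7.25 CPM in SP (median 6.49) and 0.514 to 3.40 CPM in DMH (median 1.21), without overlap, and it was lower in DMH in 12 of 12 embryos. The log2 fold change was −2.24 (SE 0.36, adjusted p = 0.000174) in controls and −3.17 (SE 0.24, adjusted p = 1.20e-06) in mutants. The highest of the control DMH libraries was male control 3 with 3.40 CPM, while the other 5 had at most 1.35 CPM. The sum of 8 forebrain markers in that library was 351 CPM, and all DMH libraries had 146 to 372 CPM. It was the highest sum among the DMH libraries with caudal *Hox* RNA, where the others had at most 252 CPM. The 4 DMH libraries low in caudal *Hox* RNA had 285 to 372 CPM. The part of forebrain RNA in the *Aldh1a3* value of male control 3 was not tested. Without this embryo the log2 fold change in controls was −2.82 (SE 0.21, adjusted p = 1.01e-07).

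*Aldh1a2* (chr9:71215789-71296243, plus strand) had 7.12 to 9.07 CPM in the SP of controls (median 7.76) and 10.9 to 28.6 CPM in their DMH (median 22.4). The SP values were close together and all below the DMH values. The log2 fold change was 1.35 (SE 0.23, adjusted p = 0.000257) in controls and 1.12 (SE 0.38, adjusted p = 0.0295) in mutants. In mutants the SP of male mutant 3 was the lowest library at 1.78 CPM, against 5.34, 5.85, 7.19 and 9.16 CPM in the others. This was the SP library low in markers of meninges, choroid plexus, endothelium and surface epithelium, whose part in this value was not tested, and without this embryo the log2 fold change in mutants was 0.74 (SE 0.23, adjusted p = 0.0275). In these bulk samples fewer cells of a type and less RNA per cell cannot be told apart.

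Of the carriers, *Crabp2* (chr3:87948666-87953376, plus strand) was higher in DMH in both genotypes. It had 6.84 to 13.2 CPM in the SP and 16.3 to 26.8 CPM in the DMH of controls, and within embryos the DMH value was 1.97 to 3.15 times the SP value in 12 of 12. The log2 fold change was 1.12 (SE 0.06, adjusted p = 6.02e-10) in controls and 1.13 (SE 0.18, adjusted p = 0.000339) in mutants. *Crabp1* (chr9:54764748-54773110, plus strand) was called in controls, with a log2 fold change of 1.27 (SE 0.28, adjusted p = 0.0022), and not in mutants, with 0.40 (SE 0.29, adjusted p = 0.275). Its SP levels lay between 7.55 and 13.6 CPM in all 12 embryos. In DMH, 8 libraries had 24.7 to 31.1 CPM and the 4 with little caudal *Hox* RNA had 7.29, 8.99, 9.72 and 12.5 CPM, and 3 of these 4 were below the SP of the same embryo. Without the embryos low in *Hox* the log2 fold change was 1.51 (SE 0.09, adjusted p = 1.82e-08) in the 5 remaining controls, where 6 of 8 genes were called against 37.1% of all genes. In the 2 remaining mutants, male mutants 1 and 3, it was 1.16 (SE 0.24, adjusted p = 0.0326), where 8 of 8 were called against 38.9%. Both of these counts of called genes include *Aldh1a1*, which passed the filter only through DMH. The SP of male mutant 3 was the library low in markers of meninges and choroid plexus.

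*Cyp26b1* (chr6:84571414-84593908, minus strand), which encodes an enzyme that oxidises retinoic acid and so ends its signal, had the largest CPM of the 9 genes in DMH. It was at 9.91 to 15.8 CPM in the SP of controls and 86.7 to 165 CPM in their DMH (median 127 in DMH), and within embryos the ratio was 6.78 to 14.7. Its log2 fold change was 3.27 (SE 0.16, adjusted p = 1.36e-08) in controls and 3.22 (SE 0.11, adjusted p = 8.09e-09) in mutants. *Cyp26a1* (chr19:37697798-37701536, plus strand), the other breakdown gene, had no more than 2 counts in 23 of 24 libraries, under the floor, and did not pass the filter on low counts in any comparison. With no filter it was tested in all 12 and called in 0. The exception was the DMH of female mutant 3, with 41 counts, 0.622 CPM.

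*Rarb* (chr14:16430839-16819156, minus strand), the receptor gene with the DR5 match, was at a similar level in both regions of controls. It had 12.2 to 16.8 CPM in SP (median 15.3) and 6.84 to 15.8 CPM in DMH (median 14.1), with a log2 fold change of −0.28 (SE 0.16, adjusted p = 0.147). In mutants it was called lower in DMH, at −0.90 (SE 0.14, adjusted p = 0.00021), with at most 17.8 CPM in SP and 6.92 to 11.7 CPM in DMH, and no overlap. Its exons overlap those of *Top2b* and *Gm48162* on the other strand, and the counts used here are those of its own strand. The difference between these contrasts did not pass the test of the interaction given below. *Stra6* (chr9:58063788-58153996, plus strand), the retinol receptor gene, was 0.33 (SE 0.08, adjusted p = 0.00201) higher on the log2 scale in the DMH of controls, below the fold threshold, and 0.18 (SE 0.20, adjusted p = 0.467) in mutants. In mutants the value was −0.013 (adjusted p = 0.958) without male mutant 3, 0.36 (adjusted p = 0.231) without male mutant 2, and 0.84 (adjusted p = 0.062) without the 3 embryos low in *Hox*. The last value rests on male mutants 1 and 3, which had the lowest SP levels of *Stra6*, 9.79 and 7.95 CPM. In controls *Stra6* had 12.0 to 16.6 CPM in the SP and 16.2 to 19.7 CPM in the DMH, and the groups overlapped. All of these adjusted p-values are from the quasi-likelihood test of edgeR. The ranges of SP and DMH did not overlap for 5 of the 8 tested genes in controls and for 5 in mutants, against 40.1% and 36.9% of all genes. *Aldh1a1*, which passed the filter only through DMH, is among the 5 in both genotypes. The others were *Aldh1a2*, *Aldh1a3*, *Crabp2* and *Cyp26b1* in controls, and *Aldh1a3*, *Crabp2*, *Cyp26b1* and *Rarb* in mutants. Positions are those of GENCODE vM21 on GRCm38.

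**Figure D2:**
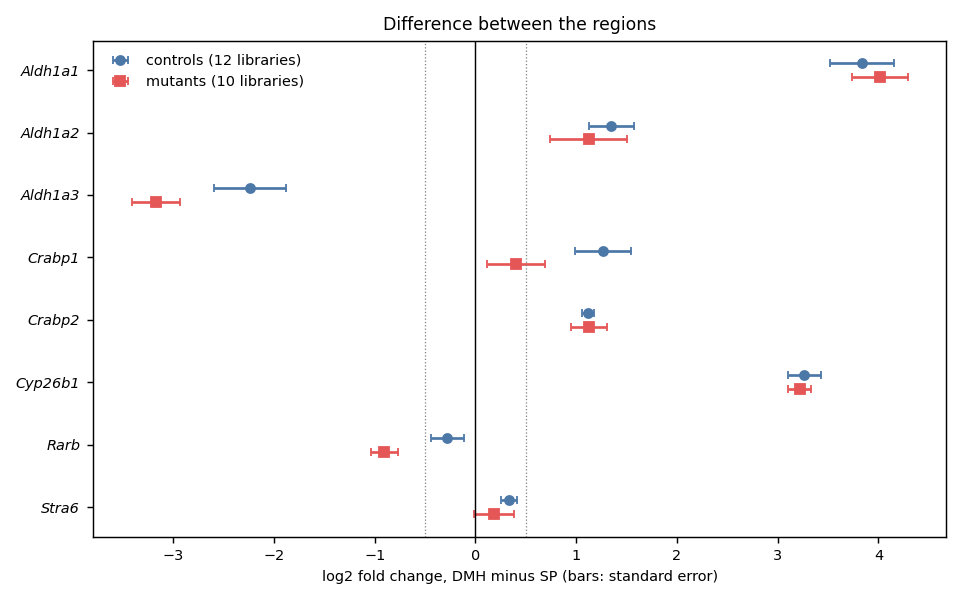
Log2 fold change of 8 genes, DMH minus SP, on the horizontal axis, in controls (circles, 12 libraries) and mutants (squares, 10 libraries), with standard errors and dotted lines at the fold threshold of 0.5. Aldh1a1, which passed the filter only through DMH, and Cyp26b1 lie above 3 in both genotypes, Aldh1a3 below −2, and Crabp1 and Rarb are farther apart between the genotypes than Crabp2.

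Of a wider list of 47 other genes of the retinoid pathway, with binding proteins, dehydrogenases, receptors, cofactors and target genes, 37 were tested between the regions. In controls 7 were called higher and 6 lower in DMH, and in mutants 9 higher and 6 lower. These shares of the list, 35.1% and 40.5%, lay near the 35.9% and 36.2% of all genes. The median log2 fold change of the 37 was 0.14 and −0.014. *Dhrs3*, which encodes a reductase that turns retinaldehyde back into retinol, had 12.2 ± 1.55 CPM in the DMH and 4.51 ± 0.714 CPM in the SP of controls (SD, n = 6), and log2 fold changes of 1.43 (SE 0.11) in controls and 1.65 (SE 0.16) in mutants. *Rbp4*, the gene of the blood carrier of retinol, had 0.912 ± 0.291 CPM in the DMH and 0.184 ± 0.0917 CPM in the SP of controls, and 0.842 ± 0.184 and 0.116 ± 0.0752 CPM in mutants. *Aldh1a7*, a relative of *Aldh1a1*, had 1.78 ± 0.81 and 0.174 ± 0.0804 CPM in controls, and 1.57 ± 0.924 and 0.156 ± 0.126 CPM in mutants. Both genes were near the floor in SP, *Rbp4* with 0 counts in a library of a mutant, so no fold is given. *Rora*, an orphan receptor gene, had 71.4 ± 6.37 CPM in the DMH and 7.56 ± 1.35 CPM in the SP of mutants (n = 5). Lower in DMH were the cofactor gene *Ncoa1*, at −0.55 (SE 0.06) and −0.78 (SE 0.10), and *Zfp703*, at −0.64 (SE 0.06) and −0.72 (SE 0.09). *Meis2* was lower in controls at −0.62 (SE 0.07), and *Rxrg* at −0.73 (SE 0.14).

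Genotype was compared to ask whether loss of *Tfap2b* changes these genes, in each region and sex as in the study and with the sexes together. No gene was called in any of these 6 comparisons by edgeR, of 7 tested in SP and 8 in DMH. Of all genes 0.0181% were called in female SP, 0% in male SP, 0.00596% in female DMH, 0.0236% in male DMH, 0% in SP of both sexes and 0.0523% in DMH of both sexes. At an unadjusted p under 0.05 there were 1, 0, 0, 2, 1 and 4 of the genes in the same order, beside 2.58%, 3.65%, 8.90%, 2.89%, 5.07% and 15% of all genes. DESeq2 called 1, *Rarb* in DMH of both sexes (−0.55, SE 0.17, adjusted p = 0.192), with 0.302% of all genes, and the likelihood ratio test of edgeR called 0. These comparisons share their controls where the sexes are joined. Of the 47 other retinoid genes, 34 to 39 were tested here and 0 called.

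In SP the widest differences were those of *Aldh1a2* and *Aldh1a3*, in opposite directions. *Aldh1a3* had 5.01, 6.26, 6.29, 6.69, 6.75 and 7.25 CPM in the 6 controls and 7.29, 7.35, 7.52, 8.19 and 8.96 CPM in the 5 mutants. All 5 mutants lay above all controls, as did the SP of female mutant 3 with 7.28 CPM. Of all genes 0.460% did not overlap between the 5 mutants and the controls, and in 0.183% the mutants were the higher ones. The forebrain list summed to 1672 to 2018 CPM in the 5 mutants and 1474 to 1690 CPM in the controls, and 8 markers of striatal neurons to 319 to 473 and 256 to 386 CPM, and their part in this difference was not tested. The log2 fold change was 0.34 (SE 0.11) with an unadjusted p of 0.00831 and an adjusted p of 0.901, both from edgeR. *Aldh1a2* had a log2 fold change of −0.41 (SE 0.29, adjusted p = 0.901), and without the SP library of male mutant 3 it was −0.20 (adjusted p = 0.755). Without a filter on low counts *Aldh1a2* was called in females (0.0855% of all genes called). In females alone, where 3 controls had 7.12 to 9.07 CPM and 2 mutants 5.34 and 5.85 CPM, it was −0.54 (SE 0.13, adjusted p = 1.0), while the third mutant, left out, had 8.77 CPM. The other 5 tested genes differed by −0.06 to 0.26 on the log2 scale.

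In DMH 7 of the 8 log2 fold changes were negative and that of *Crabp2* was 0.25 (SE 0.11, adjusted p = 0.327). The median was −0.47, and over all genes it was −0.0025. *Crabp1* differed by −0.78 (SE 0.39, adjusted p = 0.351), *Aldh1a3* by −0.73 (SE 0.37, adjusted p = 0.343), *Aldh1a2* by −0.69 (SE 0.30, adjusted p = 0.327) and *Rarb* by −0.55 (SE 0.18, adjusted p = 0.327). *Rarb* had 6.84 to 15.8 CPM in controls, with a median of 14.1, and 6.92, 7.36, 7.47, 11.0 and 11.7 CPM in mutants, and the lowest value of all was that of a control. For each of the 8 genes the ranges of controls and mutants overlapped with the sexes together, and 0.180% of all genes did not. In male DMH alone *Rarb* did not overlap, at 7.36 to 11.7 CPM in mutants and 13.8 to 15.8 CPM in controls (−0.57, SE 0.17, adjusted p = 0.870 in edgeR). In female DMH alone *Aldh1a2* and *Stra6* did not overlap, with mutants lower. The share of all genes is not given for these small groups. With the sexes together and without male mutant 1, *Rarb* was called (−0.61, SE 0.19, adjusted p = 0.169), with 3.10% of all genes. The value of *Aldh1a3* was −0.27 (SE 0.29, adjusted p = 0.607) without male control 3, and 0.71 (SE 0.89) with female mutant 3 added and the pieces low in *Hox* left out. The libraries of the genotypes were unlike in caudal *Hox* RNA, which was low in 3 of these 5 mutants and 1 of 6 controls.

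Among the 7 libraries with caudal *Hox* RNA, 5 controls and 2 mutants, both male, the log2 fold change, mutant minus control, was −0.05 for *Crabp1* (SE 0.10), −0.20 for *Aldh1a2* (SE 0.40), −0.39 for *Rarb* (SE 0.15) and −0.83 for *Aldh1a3* (SE 0.53), with adjusted p-values of 1.0 and 0.0228% of all genes called. With the *Hox* content as a covariate over 11 libraries, which called 0 of the 8 genes and 0.0228% of all, *Crabp1* was at −0.07 (SE 0.14) and *Rarb* at −0.25 (SE 0.13). In female DMH both mutants were low in *Hox*, so that genotype and *Hox* content could be compared only through control 1. There the log2 fold change was −1.43 (SE 0.68, adjusted p = 0.572) for *Crabp1* and −1.02 (SE 0.48) for *Aldh1a2*. Without control 1 the remaining groups differed in *Hox* content throughout, and *Crabp1* (−1.81, SE 0.14, adjusted p = 0.00214), *Rarb* (−0.74, SE 0.20, adjusted p = 0.105) and *Cyp26b1* (−0.55, SE 0.18, adjusted p = 0.169) were called, with 6.63% of all genes. With no filter on low counts and all 5 libraries *Rarb* was called, with 1.81%.

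**Figure D3:**
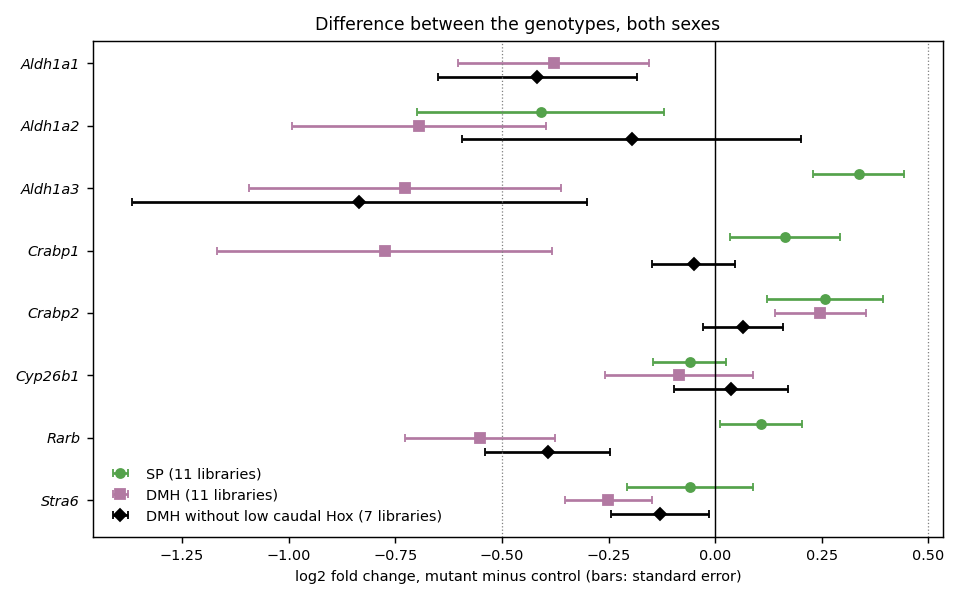
Log2 fold change of 8 genes, mutant minus control, on the horizontal axis, with both sexes in 1 fit and standard errors as bars: SP (circles), DMH (squares) and DMH without the 4 libraries low in caudal Hox (diamonds). Dotted lines mark 0.5 in either direction; Crabp1 moves from −0.78 to −0.05 when those libraries are left out, and Aldh1a1 was not tested in SP.

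The difference between the genotypes was itself compared between regions and between sexes, and no gene was called. The share of all genes called was 0.00565% for region, and 0% for sex in SP and in DMH. At an unadjusted p under 0.05 there were 2 genes for region, *Rarb* (−0.61, SE 0.22, unadjusted p = 0.010, adjusted p = 0.999) and *Aldh1a3* (−0.94, SE 0.44, unadjusted p = 0.0458), 1 for sex in SP, *Crabp1* (−0.51, SE 0.22, unadjusted p = 0.0438), and 0 for sex in DMH. Of all genes 2.06%, 2.21% and 2.00% had such a p in the same order. The likelihood ratio test and DESeq2 called none in these 3 tests.

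The DMH pieces were then compared by their caudal *Hox* content. The division was made from the measured sums of 11 *Hox* genes, none of them a gene described here, and was known from earlier results. With sex and genotype as covariates, 3 of 8 genes were called, 3 higher and none lower in the 7 libraries with caudal *Hox* RNA than in the 4 without. Of all genes 6.89% were called, 5.60% higher and 1.29% lower. *Crabp1* was higher by 1.48 on the log2 scale (SE 0.15, adjusted p = 0.000838), *Rarb* by 0.65 (SE 0.15, adjusted p = 0.0224) and *Aldh1a2* by 0.86 (SE 0.32, adjusted p = 0.125).

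*Crabp1* had 7.29, 8.99, 9.72 and 12.5 CPM in the 4 low pieces, and 24.7 to 31.1 CPM in the 7 others (median 28.8). *Rarb* had 6.84, 6.92, 7.36 and 7.47 CPM in the low pieces and 9.83 to 15.8 CPM in the others. Neither overlapped, as held for 21.5% of all genes and, in this direction, 10.5%. *Aldh1a2* had 7.70, 8.81, 10.2 and 12.7 CPM against 10.9 to 28.6 CPM, and the groups overlapped only through female control 2, at 10.9 CPM, which had the lowest *Hox* sum of the 7 (237 CPM). Without that library the log2 fold change of *Aldh1a2* was 1.14 (SE 0.14, adjusted p = 0.00133), and without female control 3, at 26.7 CPM, it was 0.52 (SE 0.27, adjusted p = 0.322). With the replicate number as a block the fold changes of *Aldh1a2* and *Rarb* were 0.42 (SE 0.36, adjusted p = 0.616) and 0.39 (SE 0.21, adjusted p = 0.388), and *Crabp1* alone was called, at 1.29 (SE 0.18, adjusted p = 0.0302), with 3.50% of all genes.

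*Crabp2* went the other way without being called. It had 26, 26.4, 27 and 33.1 CPM in the low pieces and 16.3 to 26.8 CPM in the others, a log2 fold change of −0.27 (SE 0.12, adjusted p = 0.173). The SP of the same embryos also differed, with 11.7, 12.8, 12.9 and 16 CPM in these 4 and 6.20 to 13.2 CPM in the 7 others. Within embryos the DMH value was 2.02 to 2.30 times the SP value in the 4 and 1.99 to 3.15 times in the 7. *Cyp26b1* had 81.4, 86.7, 114 and 152 CPM against 107 to 165 CPM (0.28, SE 0.24, adjusted p = 0.507), *Stra6* differed by 0.16 (SE 0.13, adjusted p = 0.455), *Aldh1a3* by 0.38 (SE 0.56, adjusted p = 0.703) and *Aldh1a1* by −0.13 (SE 0.33, adjusted p = 0.834). Without male mutant 2, the low piece with 152 CPM, *Cyp26b1* was called higher with *Hox* RNA (0.66, SE 0.19, adjusted p = 0.131), with 4.44% of all genes, and without female control 1 or 2 its value was 0.093 and 0.096. Of the wider list, 3 of 39 genes were called, all higher with caudal *Hox* RNA, which is 7.69% of the list beside 6.89% of all genes. *Tshz1* had 150 ± 15.1 CPM in the 7 and 80.9 ± 6.21 CPM in the 4 libraries (SD), and *Meis1*, which encodes a partner of HOX proteins, 92.8 ± 5.49 and 49.3 ± 12.2 CPM. *Aldh1a7* had 2.15 ± 0.615 and 0.859 ± 0.305 CPM.

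Marker sums of other tissues were read in the same pieces. The 8 markers of midbrain and rostral hindbrain summed to 468 to 535 CPM in the low and 258 to 419 CPM in the other pieces, and the forebrain list to 285 to 372 and 146 to 351 CPM. The meningeal list summed to 751 to 923 CPM in the low and 926 to 1237 CPM in the other pieces, with no marker at 0 in any DMH library, and the choroid plexus list to 222 to 553 and 498 to 739 CPM. The part of these tissues in the differences of *Crabp1*, *Rarb* and *Aldh1a2* was not tested. With female mutant 3, which had 346 CPM of caudal *Hox* RNA, added to the high group, *Aldh1a3* was also called (1.97, SE 0.75, adjusted p = 0.0731), with 13.4% of all genes.

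**Figure D4:**
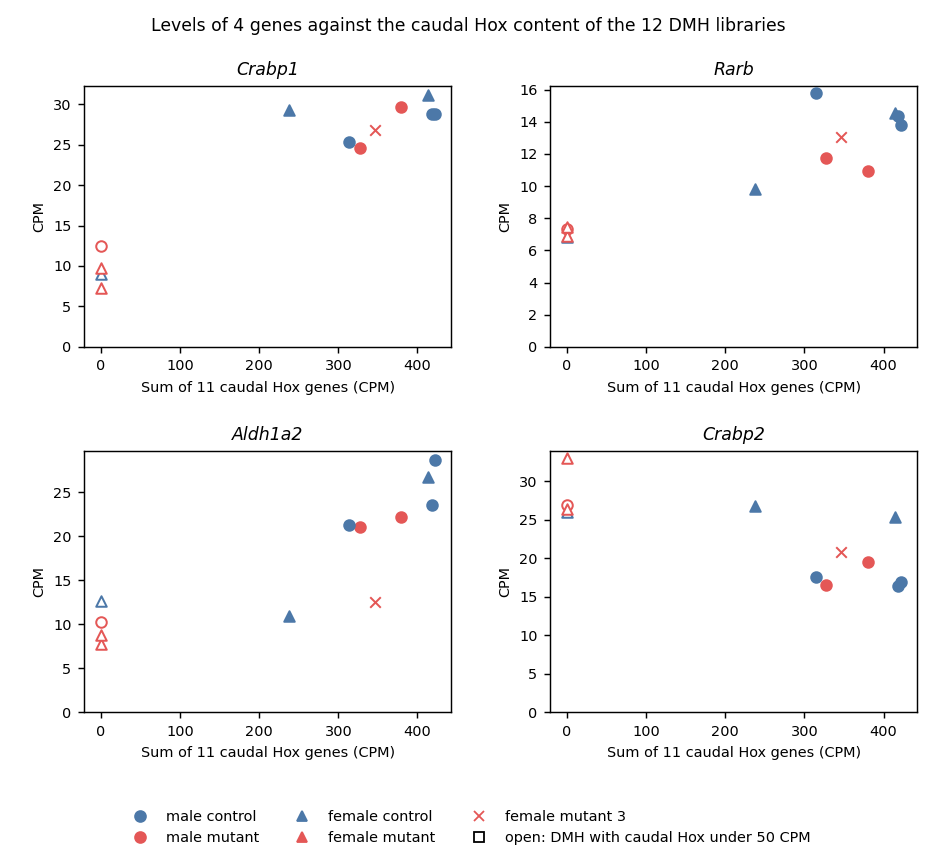
CPM of Crabp1, Rarb, Aldh1a2 and Crabp2 (vertical axes) against the sum of 11 caudal Hox genes in CPM (horizontal axes) in the 12 DMH libraries, with open symbols for the 4 low libraries. Crabp1 in the open symbols is at 12.5 CPM or less and in all filled symbols and the cross at 24.7 CPM or more.

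The levels of 2 genes by labelled sex are given as a description. *Crabp2* had 10.6 to 16 CPM in the SP of the 6 females and 6.20 to 8.29 CPM in 5 of the 6 males, and the sixth, male mutant 2, had 11.7 CPM. In DMH the same embryos separated, with 20.9 to 33.1 CPM in the 6 females and male mutant 2 (27 CPM) and 16.3 to 19.6 CPM in the other 5 males. By label the sexes overlapped for *Crabp2* in both regions. The grouping with male mutant 2 was made from these same values, so no share of all genes is set beside it. The embryo labelled female control 2, with Y-linked transcripts like male mutant 2, was among the high ones in both regions, at 13.2 and 26.8 CPM. *Cyp26b1* in SP had 8.80 to 11.6 CPM in the females and 12.1 to 15.8 CPM in the males, without overlap by label, which held for 0.736% of all genes in SP. Female control 2, with its Y-linked transcripts, had 11.4 CPM, so by these transcripts the sexes overlapped. In DMH the sexes overlapped, at 81.4 to 165 and 107 to 152 CPM.

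**Figure D5:**
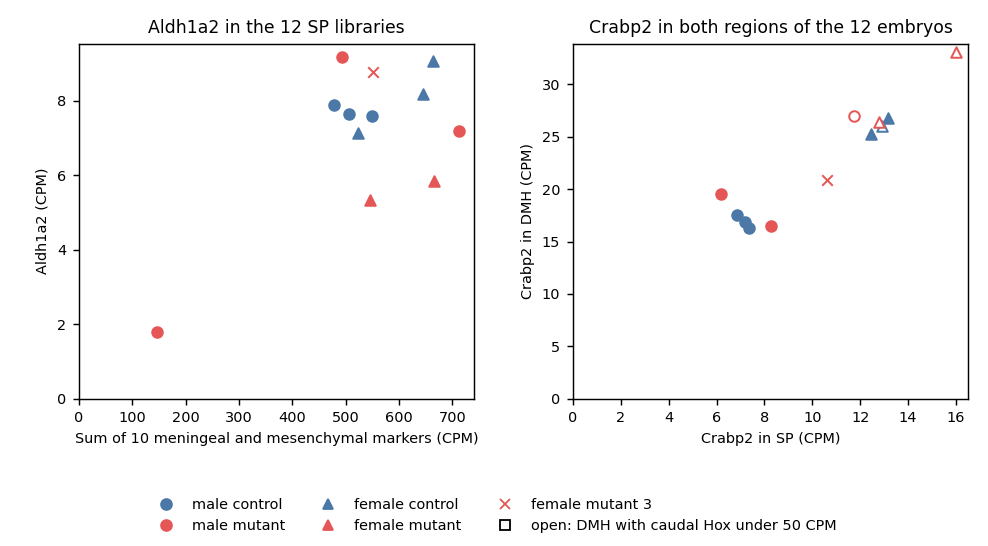
Left, Aldh1a2 (vertical axis) against the sum of 10 meningeal and mesenchymal markers (horizontal axis) in the 12 SP libraries, in CPM, with male mutant 3 at 146 CPM of the markers and 1.78 CPM of Aldh1a2. Right, Crabp2 in the SP (horizontal axis) and the DMH (vertical axis) of each of the 12 embryos, in CPM; 5 male embryos have at most 8.29 and 19.6 CPM, and the other 7 at least 10.6 and 20.9 CPM.

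The genes most like each member across libraries were found by Pearson's correlation of log2(CPM + 0.1), among genes with a mean of at least 1 CPM, over the 12 SP libraries and the 11 DMH libraries apart. Differences in dissection and depth between libraries enter these values, which describe the samples and have no p. In SP *Aldh1a2* was most like *Postn* (r = 0.98) and *Cgnl1* (0.96). *Stra6* was most like *Tril* (r = 0.99) and *Tgm2* (0.97), *Crabp2* like *Gins3* (0.96), *Crabp1* like *Vac14* (0.93), *Aldh1a3* like *Pou3f4* (0.92), *Rarb* like *Gm39244* (0.92) and *Isl1* (0.90), and *Cyp26b1* like *Gm3365* (0.90). *Stra6* itself had its lowest SP levels in male mutants 3 and 1, at 7.95 and 9.79 CPM, against 12.0 to 16.6 CPM in the other 10 embryos. These libraries were also the lowest in the choroid plexus list (41.3 and 203 CPM, others 294 to 533) and the endothelial list (161 and 205 CPM, others 226 to 270), whose part in the levels of *Stra6* was not tested.

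In DMH *Crabp1* was most like *Tshz3* and *Hoxa4* (both r = 0.98), of which *Hoxa4* is 1 of the 11 genes of the caudal sum. *Aldh1a2* was most like *Pde11a* (r = 0.99) and *Dclk3* (0.97), *Aldh1a1* like *Kctd4* (0.97) and *Krt1* (0.96), *Crabp2* like *Nop53* and *Psmc3* (both 0.97), *Rarb* like *Tmem255a* and *Calca* (both 0.96), *Aldh1a3* like *Mpped1* (0.95) and the receptor gene *Rxrg* (0.93), *Cyp26b1* like *Irx4* (0.94) and *Stra6* like *Lbp* (0.93). For none of the genes was the same gene among the closest 2 in both regions.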

How the data were processed

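Poly(A) RNA of the SP and DMH of 12 embryos was sequenced as stranded paired-end libraries. Per the submitters' processing notes, reads were trimmed with cutadapt 2.4 and aligned with STAR 2.6.1d to GRCm38.p6 (mm10). The authors deposited raw counts per gene, with columns for either strand, and no normalisation was applied before deposit. The counts of the reverse strand were used, the unstranded counts were an alternative, and 1 count column per library was not used. Of the fragments, 17.3% to 25.9% stood in the 4 lines that name no gene and stayed out of library sizes and tests. Symbols were matched for 54409 of 54446 gene identifiers, and in the blood list 6 of 7 markers were found.

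Groups came from the labels. The SP and DMH libraries with the same label and number were taken as 1 embryo, and the deviations of such pairs from their group means correlated with r = 0.0627 to 0.555. A control and a mutant of 1 number share the number alone. Genes were filtered with filterByExpr, scaled by TMM and tested with the quasi-likelihood test of edgeR 4.0.16 (R 4.3.3), with Benjamini-Hochberg adjustment over all genes tested, on simulated data first. DESeq2 1.42.0, the likelihood ratio test, other filters, the replicate number as a block, and fits without single libraries or the DMH pieces low in *Hox* were alternatives. P-values of the genotype tests measure the spread between these embryos. The tests between regions and of region by genotype treated the SP and DMH libraries of 1 embryo as independent. Their p-values thus measure the spread between libraries, and their block alternative was the embryo.

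The rule for named genes took all 9 genes in every comparison, up to 4 called genes of the wider retinoid list in each direction by smallest p, and the 2 genes most like each of the 9 in each region. The text gives part of them by name and the rest as ranges, 1 gene of the wider list is not reported here, and no likeness was computed for genes with a mean under 1 CPM in the region (*Cyp26a1*, and *Aldh1a1* in SP). The genes, lists and the division by *Hox* were chosen with earlier results of these data known.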

Additional observations from a re-analysis of the deposited data

Results flagged for a closer look

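Dixon's test flagged a library in 6 of 36 groups of 6 libraries, where chance flags about 1 in 20 groups. *Aldh1a1* in SP was highest in female control 3, at 0.409 CPM. *Aldh1a3* in DMH was highest in male control 3 among controls, at 3.40 CPM, and in female mutant 3 among mutants, at 5.92 CPM. *Crabp1* in DMH was lowest among controls in female control 1, at 8.99 CPM, which was the control low in caudal *Hox* RNA. *Cyp26a1* in DMH was at 0.0302 CPM in female control 2, which is 1 count beside 0 in the other controls and under the floor, and at 0.622 CPM in female mutant 3.

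Female mutant 3 was left out of the comparisons, and its values lay above every control for *Aldh1a3* in SP (7.28 CPM, highest control 7.25 CPM), *Aldh1a3* in DMH (5.92 CPM, 3.40 CPM), *Cyp26a1* in DMH (0.622 CPM, 0.0302 CPM) and *Rarb* in SP (18 CPM, 16.8 CPM). Its DMH was the piece with muscle and cartilage RNA, and the part of that tissue in these values was not tested.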

How the results depend on the processing

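Over 45 alternative settings, 1837 of 1863 values kept their side of the threshold, 11 lost a call, 15 gained one and 0 called values reversed, while 60 values that were never called changed sign. With no filter on low counts, 1 gene was called in female SP (*Aldh1a2*) and 1 in female DMH (*Rarb*). DESeq2 called 1 gene in DMH of both sexes (*Rarb*). Leaving out 1 library at a time gave 0 to 3 calls in female DMH, 3 of them without female control 1, and 0 to 1 in DMH of both sexes. With the replicate number as a block, 1 gene (*Crabp1*) was called between the DMH pieces by *Hox* content in place of 3. The block changed no other call, and samples of a control and a mutant with 1 number correlated with r = −0.169 to 0.584, so the numbers do not pair them. *Aldh1a2* lost its call by *Hox* content without male mutant 1 (adjusted p = 0.243), male mutant 2 (0.368), male mutant 3 (0.215) or female control 3 (0.322). *Cyp26b1* gained one without male mutant 2. The female DMH comparison and the sex by genotype interaction in DMH could not be fitted without the pieces low in *Hox*, which include both female mutants. The causes were not tested. *Aldh1a1* in SP, at 3 to 16 counts, and *Cyp26a1* had few counts, so their values are imprecise.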
